A study of Mus musculus with 32 samples.

Results

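Genes that respond to hypoxia-inducible factor (HIF) but do not encode glycolytic enzymes or glucose and lactate transporters were described in sorted Lgr5-EGFP+ cells of mouse colonoids. The 10 genes were Egln3, Egln1, Bnip3, Bnip3l, Ndrg1, Vegfa, Ddit4, Kdm3a, Ankrd37 and P4ha1, of 23517 genes in the count table, and each was found there by its symbol. They were selected on values measured in these cells, their fold change between cells treated with bethanechol (Bch) and untreated cells of the same mouse, so that response is given as a description and supports nothing by itself.

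Colonoids are epithelial organoids, grown here in Matrigel from proximal colonic crypts of mice with the Lgr5-EGFP-IRES-CreERT2 allele. Each of 8 mice gave 1 untreated culture and 1 culture that received Bch at 250 nM in a daily change of medium for 4 days; Bch activates muscarinic acetylcholine receptors. EGFP+ cells were sorted and sequenced as 2 technical replicates, and the 32 libraries were summed to 16, which held 557512 to 4050342 unique molecular identifiers (UMIs, each standing for 1 counted cDNA molecule). The mice form 2 sets of 4, BR7-BR10 and BR1-BR4, each with 4 untreated and 4 treated sums.

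Untreated and treated cells share the Lgr5 allele, in which EGFP and a Cre recombinase follow Lgr5, and the growth medium L-WRN. The EGFP gate reads that allele and is not a gate on protein of the stem cell receptor itself. The sets differ in their labels. BR1-BR4 are labelled male, with sorted Lgr5+ cells as the source and RNeasy Plus Micro as the kit, whereas BR7-BR10 carry no sex label, name colonic organoids as the source and were extracted with RNeasy Mini. The submitters' design text names 4 female and 4 male mice without saying which. As BR1-BR4 are labelled male, this leaves BR7-BR10 as the 4 female mice, by elimination and not by a label. Xist was at 43.8 to 161 CPM (UMIs of a gene per 1000000 UMIs of the sum, after scaling by TMM) in BR7-BR10 and at 11.9 to 24.2 CPM in BR1-BR4, while the Y-linked Eif2s3y was at 2.57 to 8.62 and 36.5 to 62.8 CPM, so neither gene was at 0 in either set. The Y-linked Uty, Kdm5d and Ddx3y were at 0 to 1.7, 0 to 1.3 and 0.4 to 5.2 CPM in BR7-BR10. In BR1-BR4 they were at 2.3 to 8.5, 2.4 to 12.2 and 4.0 to 15.7 CPM. Sex, source and kit go together with the set and cannot be told apart.

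Most sums came from 3000 sorted cells. Untreated mouse 1 was sorted to 13114 cells, treated mouse 1 to 3504, untreated mouse 3 to 2361 and untreated mouse 9 to 2401. Untreated mouse 3 was also the shallowest sum, where 3 UMIs, the upper limit that a count of 0 allows, correspond to 5.24 CPM, against 0.703 CPM in treated mouse 8, the deepest; these limits cover counting error only. Lgr5 was measured at a mean of 19.5 CPM in untreated BR7-BR10 and 34.5 CPM in untreated BR1-BR4. The 10 non-epithelial markers, of which 6 were in the table, summed to at most 10.5 CPM in any sum, and the tuft cell markers to at most 12.2 CPM. In bulk RNA of this kind, fewer cells of a type and less RNA per cell cannot be told apart.

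HIF is a transcription factor made of an oxygen-regulated alpha subunit and a stable beta subunit. When oxygen is sufficient, prolyl hydroxylases mark the alpha subunit, and the von Hippel-Lindau protein then directs its degradation, whereas low oxygen lets it persist and bind hypoxia response elements in target genes. Besides glycolysis, the targets cover feedback on oxygen sensing, removal of mitochondria, restraint of growth signalling, blood vessel growth, chromatin and collagen modification. The colonic mucosa lies next to a nearly anoxic lumen, and HIF targets are part of normal epithelial gene expression there.

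The core of a hypoxia response element, written here as ACGTG and GCGTG and searched on both strands, was counted in the RefSeq promoter windows (250 bases before to 50 after a start site, GRCm38.p6). Of the 10 genes, 8 matched the table of promoters, with 11 windows between them; Bnip3l and Ndrg1 were not matched. A core was found in 8 of the 11 windows (72.7%), against 58.1% of the 15848 windows of genes in the count table and 43.8% of all 32851 windows counted. The windows of a chromosome that holds no member had been left out of these counts. ACGTG alone was found in 7 of the 11 (63.6%), against 24.3% and 19.6%. Windows and not genes were counted, with 3 for Kdm3a and 2 for Vegfa. The members are listed because they are HIF targets, so these shares follow from the list and say nothing about the cells. The members' windows had a median GC content of 69.0%, and those of genes with counts 59.3%, so the letters were more frequent in windows that also held more G and C. The 250 bases before the start are shown for the members whose levels the results turn on, with the cores in capitals and read on the gene's strand (minus for all 4). Bnip3 (chr7:138909507-138909756) differed between the untreated sets, Egln3 (chr12:54203875-54204124) and Ddit4 (chr10:59951771-59952020) were higher with Bch in every mouse of BR7-BR10, and Ankrd37 (chr8:45999851-46000100) was high in the sums in which Bnip3 was high.
Bnip3: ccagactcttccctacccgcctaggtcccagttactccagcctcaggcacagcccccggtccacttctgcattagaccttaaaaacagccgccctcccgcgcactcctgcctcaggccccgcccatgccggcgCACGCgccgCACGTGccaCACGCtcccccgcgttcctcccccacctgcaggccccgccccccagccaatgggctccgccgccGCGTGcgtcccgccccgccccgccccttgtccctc
Egln3: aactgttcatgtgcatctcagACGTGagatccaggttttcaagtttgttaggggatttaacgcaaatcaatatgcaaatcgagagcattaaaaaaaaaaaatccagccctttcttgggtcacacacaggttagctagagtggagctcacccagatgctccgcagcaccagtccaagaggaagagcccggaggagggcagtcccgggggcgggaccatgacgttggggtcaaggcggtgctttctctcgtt
Ddit4: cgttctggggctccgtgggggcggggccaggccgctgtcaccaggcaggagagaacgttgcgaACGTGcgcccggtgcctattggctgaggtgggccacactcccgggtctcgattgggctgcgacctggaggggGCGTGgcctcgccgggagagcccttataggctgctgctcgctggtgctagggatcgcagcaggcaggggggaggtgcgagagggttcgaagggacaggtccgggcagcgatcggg
Ankrd37: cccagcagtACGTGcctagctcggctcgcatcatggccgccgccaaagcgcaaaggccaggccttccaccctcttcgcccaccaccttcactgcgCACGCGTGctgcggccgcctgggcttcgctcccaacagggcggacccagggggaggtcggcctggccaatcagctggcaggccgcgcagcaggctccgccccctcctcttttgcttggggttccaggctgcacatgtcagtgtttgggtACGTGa
In the Bnip3 window, 5 matches lay 117, 108, 107, 99 and 35 bases before the start, and the matches at 108 and 107 are the same palindrome read on both strands. Ankrd37 had 4 matches, at 241, 155, 152 and 6 bases, of which those at 155 and 152 overlap. Egln3 had a single match 229 bases before its start and Ddit4 had matches at 187 and 115 bases. The starts are those of RefSeq; the span of Ankrd37 given below is GENCODE's, which reaches further upstream through a longer transcript, so its window lies inside that span. A match is a match of letters and not a measured binding site.

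The oxygen sensing members are the prolyl hydroxylases that mark HIF alpha for degradation and are themselves HIF targets. Egln3, which encodes PHD3 (chr12:54178981-54203860 in GRCm38), was measured at 37.2, 52.8, 62.9 and 64.1 CPM in untreated mice 7, 8, 9 and 10, and at 103, 60.3, 75.6 and 103 CPM in their treated partners. It was higher with Bch in 4 of 4 mice of BR7-BR10, most in mouse 7 and least in mouse 8, but the treated values overlapped the untreated ones because treated mouse 8 stayed below untreated mice 9 and 10. In BR1-BR4, untreated mice 1, 2, 3 and 4 had 59.8, 35.3, 33.2 and 27.4 CPM and treated mice 90.8, 33.7, 27.0 and 30.7 CPM. Mouse 1 stood above its set in both cultures, and 2 of 4 mice were higher with Bch. The fitted log2 fold change was 0.62 (SE 0.18) in BR7-BR10, or 0.40 without mouse 7, and 0.18 (SE 0.18) in BR1-BR4, or -0.04 without mouse 1 and 0.28 without mouse 3 or with technical replicate 1 alone.

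Egln1 (chr8:124908587-124949324), which encodes PHD2, the main oxygen sensor of the family, showed no common direction. Its levels were 34.6, 38.2, 24.3 and 41.1 CPM in untreated mice 7 to 10 and 46.0, 35.9, 42.5 and 33.0 CPM after Bch, with 2 mice higher and 2 lower. In untreated mice 1 to 4 they were 44.7, 24.9, 29.7 and 22.3 CPM, and 47.5, 39.3, 22.0 and 30.2 CPM after Bch, with 3 of 4 mice higher. Fitted over the mice, its log2 fold change was 0.17 (SE 0.20) in BR7-BR10 and 0.25 (SE 0.20) in BR1-BR4. It was -0.03 without mouse 9, 0.11 without mouse 7, 0.28 without mouse 8 and 0.37 without mouse 10 in BR7-BR10, and 0.09 without mouse 2 and 0.38 without mouse 3 in BR1-BR4. With technical replicate 1 or 2 alone it was 0.09 and 0.24 in BR7-BR10.

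The mitophagy members encode receptors of the outer mitochondrial membrane that link mitochondria to the autophagy machinery. Bnip3 (chr7:138890836-138909519) was at 64.1, 84.7, 71.5 and 56.5 CPM in untreated mice 7 to 10 and at 180, 55.8, 68.0 and 131 CPM with Bch. The treated values thus fell into a high pair, mice 7 and 10, and a pair, mice 8 and 9, within or just below the untreated range. In BR1-BR4, Bnip3 was at 50.6, 31.4, 19.2 and 18.8 CPM untreated and 99.2, 21.2, 22.5 and 20.3 CPM treated, where mouse 1 alone accounted for the high value. The log2 fold change of 0.51 in BR7-BR10 had an SE of 0.43, the largest of the 10, and was 0.21 without mouse 7, 0.25 without mouse 10 and 0.89 without mouse 8. Without mouse 8 Bnip3 passed the threshold of 0.05 (edgeR adjusted p = 0.0442), which is given as a description like the rest of this contrast. In BR1-BR4 it was 0.27 (SE 0.22), or -0.13 without mouse 1 and 0.57 without mouse 2, and 0.61 and 0.15 with technical replicate 1 or 2 alone.

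Bnip3 also shares sequence with other genes. Of the 65-base windows in the last 500 bases of its transcripts, 36.0% occur in transcripts of other annotated genes, and an antisense gene, Gm45507, overlaps its exons. Over all libraries Gm45507 held 46 UMIs and Bnip3 held 1943, and whether counting used the strand is not given in the sources used here, so its level is uncertain to that extent. Bnip3l (chr14:66985239-67008877), the paralog known as NIX, shares 27.3% of such windows with Bnip3l-ps, which held 31 UMIs against 2236.

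Bnip3l had a correlation of 0.329 with Bnip3 over the 16 sums, after each set's mean was removed. It was at 89.7, 80.2, 46.6 and 69.2 CPM in untreated mice 7 to 10 and at 96.2, 76.4, 74.3 and 86.2 CPM with Bch. In untreated mice 1 to 4 it was at 62.5, 57.6, 62.9 and 61.5 CPM, and at 61.9, 53.3, 68.0 and 50.5 CPM treated. Its levels in BR1-BR4 were the most even of all members there, with a coefficient of variation of 3.97% in untreated mice, against 49.8% for Bnip3. Its fitted log2 fold change was 0.25 (SE 0.16) in BR7-BR10, or 0.12 without mouse 9, and -0.09 (SE 0.15) in BR1-BR4. There it was -0.01 (-0.014) without mouse 4, -0.13 without mouse 3 and 0.06 and -0.22 with technical replicate 1 or 2 alone.

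Ddit4 (chr10:59949669-59951834) encodes REDD1, which restrains mTORC1 and is induced by HIF, glucocorticoids and other stresses. It was at 67.3, 89.8, 90.8 and 97.0 CPM in untreated mice 7 to 10 and at 107, 111, 102 and 111 CPM with Bch. All 4 treated values lay above all 4 untreated values, and the treated values were close together (coefficient of variation 3.94%, against 15.1% untreated). In BR1-BR4 it was at 156, 108, 89.0 and 121 CPM untreated and 183, 131, 106 and 116 CPM treated, higher in 3 of 4 mice with overlapping groups. Ddit4 had a log2 fold change of 0.32 (SE 0.15) in BR7-BR10, with 0.20 from technical replicate 1 alone, and 0.16 (SE 0.11) in BR1-BR4, or 0.25 without mouse 4.

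Ndrg1 (chr15:66929318-66969640) encodes a protein of the stress response that is used as a readout of hypoxia. It was at 32.0, 56.7, 50.7 and 43.8 CPM in untreated mice 7 to 10 and at 56.5, 74.1, 48.3 and 73.7 CPM after Bch, higher in 3 of 4. In BR1-BR4 the direction was split by mouse, with 51.5, 36.6, 36.7 and 31.0 CPM untreated and 80.0, 26.9, 27.5 and 24.3 CPM treated. Mouse 1 was higher with Bch and the other 3 were lower. The log2 fold change was 0.46 (SE 0.18) in BR7-BR10 and -0.06 (SE 0.20) in BR1-BR4, where it was -0.40 without mouse 1 and 0.02 to 0.07 without another mouse, and 0.02 with technical replicate 1 alone. Exons of Ndrg1 overlap those of Gm17035 and Gm2895, which held 15 and 26 UMIs against 1593.

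Vegfa (chr17:46016993-46032369) encodes the secreted growth factor that drives blood vessel formation. Its levels were 31.4, 37.6, 38.0 and 29.9 CPM in untreated mice 7 to 10 and 45.0, 31.7, 41.6 and 51.9 CPM with Bch. In untreated mice 1 to 4 they were 49.7, 41.2, 6.98 and 34.5 CPM, and 49.3, 31.4, 36.0 and 33.2 CPM treated. The value of untreated mouse 3 rests on 4 UMIs in the shallowest sum, and the other 3 mice were lower with Bch. For Vegfa the log2 fold change was 0.30 (SE 0.20) in BR7-BR10, or 0.11 without mouse 10 and 0.49 without mouse 8. In BR1-BR4 it was 0.11 (SE 0.22), or -0.15 without mouse 3, 0.31 without mouse 2 and 0.17 without mouse 1 or 4. It was 0.31 by DESeq2, 0.02 with no replicate block, and -0.08 and 0.19 with technical replicate 1 or 2 alone.

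Ankrd37 (chr8:45996902-46005707), a small ankyrin repeat gene known mainly as a HIF target, was at 79.4, 86.6, 112 and 78.0 CPM in untreated mice 7 to 10 and at 97.3, 62.8, 90.8 and 124 CPM with Bch. It was higher in mice 7 and 10 and lower in mice 8 and 9, the same split as that of Bnip3. In BR1-BR4 it was at 78.0, 50.4, 54.1 and 39.1 CPM untreated and 102, 28.8, 33.5 and 41.6 CPM treated. The log2 fold change was 0.05 (SE 0.16) in BR7-BR10, where it was -0.17 without mouse 10, -0.01 (-0.0079) without mouse 7, 0.23 without mouse 8 and 0.17 without mouse 9. In BR1-BR4 it was -0.17 (SE 0.18), or -0.44 without mouse 1, 0.04 without mouse 2, -0.05 without mouse 3, -0.26 without mouse 4, and -0.26 and 0.09 with technical replicate 1 or 2 alone. Exons of Ankrd37 overlap those of Ufsp2, on the other strand, which held 1639 UMIs against 2344 of Ankrd37, and 3.58% of the windows at its end are shared with Lrp2bp.

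Kdm3a (chr6:71588972-71632990) encodes a histone H3K9 demethylase that needs oxygen. It was the only member with a negative log2 fold change in both sets, -0.24 (SE 0.31) in BR7-BR10 and -0.38 (SE 0.36) in BR1-BR4, and was lower in 3 of 4 mice of each. Its levels were low, 8.50 to 15.2 CPM over the 8 sums of BR7-BR10 and 4.45 to 10.5 CPM over those of BR1-BR4, from 6 to 42 UMIs. In BR7-BR10 its sign was not kept in every way of processing, with 0.13 from technical replicate 2 alone and -0.58 from technical replicate 1. It was -0.38 without mouse 7 and -0.04 without mouse 9 in BR7-BR10 and -0.21 without mouse 4 in BR1-BR4.

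P4ha1 (chr10:59323296-59373304), the catalytic subunit of collagen prolyl 4-hydroxylase, was the member with the fewest UMIs, 2 to 27 per sum. It was at 3.84, 5.73, 4.56 and 5.14 CPM in untreated mice 7 to 10 and at 15.7, 6.33, 4.47 and 7.72 CPM with Bch, so that its log2 fold change of 0.65 (SE 0.42) came mostly from mouse 7. It was 0.27 without mouse 7. In BR1-BR4 it held 1.02 to 7.22 CPM and did not pass the filter on low counts.

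**Figure D1:**
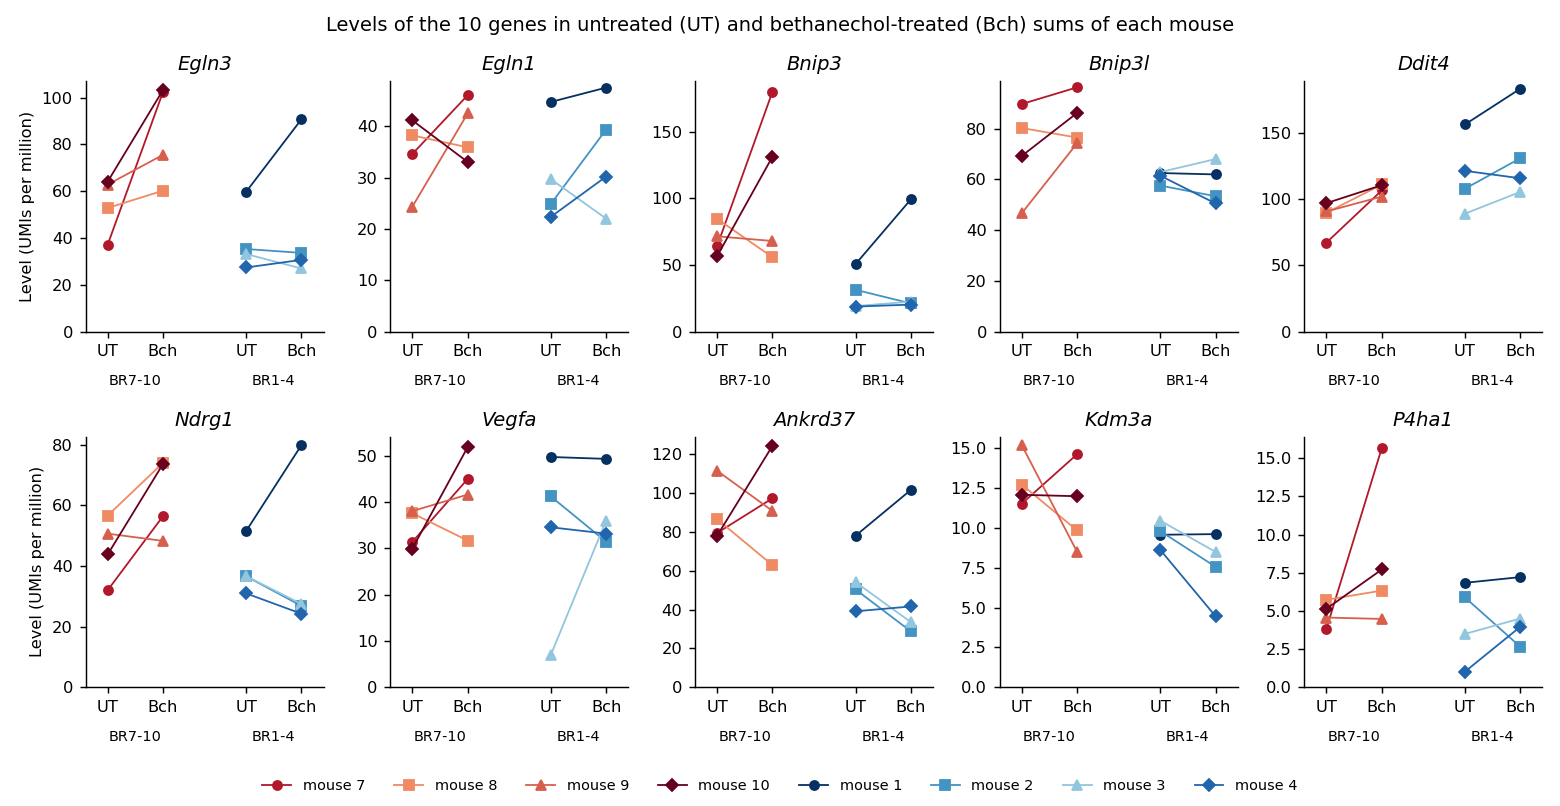
Levels in CPM (UMIs, TMM-scaled, linear axis from 0) of the 10 genes, with a line joining the untreated (UT) and Bch-treated sum of each mouse; red shades are BR7-BR10 and blue shades BR1-BR4. Mouse 1 lies above the other mice of its set in both cultures for every gene but Bnip3l and Kdm3a, and Ddit4 is the one gene whose 4 treated values of BR7-BR10 lie above its 4 untreated values.

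Over the whole table, 0 of 9515 genes (0%) passed an adjusted p of 0.05 for Bch in BR7-BR10 by edgeR's quasi-likelihood test with the mouse as a block, while 360 had an unadjusted p under 0.05. DESeq2 also called 0. All 10 members were tested, 0 passed with all 4 mice (Bnip3 did without mouse 8), and 9 had a positive log2 fold change and 1 a negative one, with a median of 0.31 against 0.00 for all genes (-0.0022). Since the members were selected with this contrast in view, nothing is read from these counts. Egln3 and Ddit4, 2 of the 10 members, were higher in all 4 mice, as were 5.81% of genes tested, and 0 were lower in all 4, as were 5.59% of genes.

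In BR1-BR4, 2 of 9509 genes (0.021%) passed, both higher with Bch. Of the members 9 were tested, 0 passed, and 5 were positive and 4 negative, with a median of 0.11 (0.0012 for all genes). No member was higher in all 4 mice, as 8.22% of genes were, and none was lower in all 4, as 6.85% were. Mouse 1 set the sign of this median, which was -0.11 without it.

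The members' ratios differed from mouse to mouse. In mouse 7 all 10 members were higher with Bch (median log2 ratio 0.58), and in mouse 10 8 were higher (0.59). In mouse 8 only 4 were higher (-0.08) and in mouse 9 5 were (0.05), so that the positive median of BR7-BR10 came from mice 7 and 10. In BR1-BR4, mouse 1 had 8 members higher (0.16), mouse 2 had 2 (-0.36), mouse 3 had 5 (-0.08) and mouse 4 had 5 (0.01). The median over 10280 genes lay between -0.012 and 0.030 in each mouse. Mice 7 and 10 were both sorted to 3000 cells in both cultures, as was mouse 8.

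**Figure D2:**
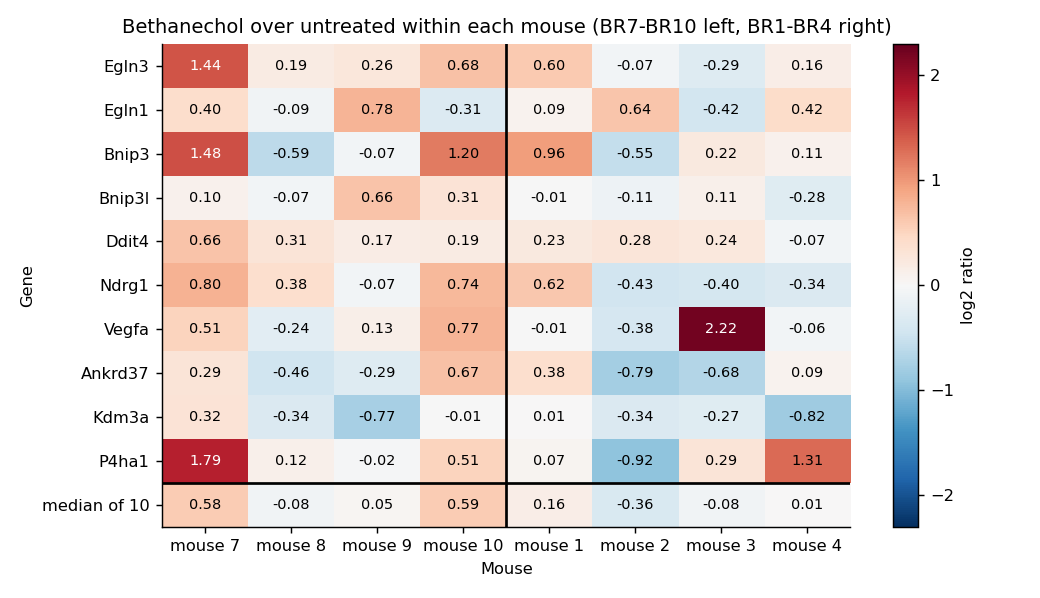
Log2 ratio of Bch to untreated level for each gene (rows) in each mouse (columns), with the median of the 10 genes in the last row; red is higher with Bch, blue lower. Mouse 7 is red in all 10 rows, mouse 2 is blue in 8, and the dark cell of Vegfa in mouse 3 (2.22) has an untreated count of 4 UMIs.

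The difference of the Bch response between the sets was fitted with all 16 sums. It passed for 0 of 10280 genes (0%), with 451 at an unadjusted p under 0.05, and for 0 of 10 members, each with an adjusted p of 1 by edgeR. The fitted differences, BR7-BR10 minus BR1-BR4, were positive for 9 of the 10, with a median of 0.23, from -0.08 (SE 0.29) for Egln1 to 0.54 (SE 0.68) for P4ha1. Of all genes 49.8% were positive, with a median of -0.0016. The differences are built from the fold changes on which the members were selected, so nothing is read from this count. For Ndrg1 it was 0.52 (SE 0.27), for Egln3 0.44 (SE 0.26) and for Bnip3l 0.33 (SE 0.21). A different response of these genes in the 2 sets was therefore not shown.

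Without Bch, the sets were compared over 8 untreated sums. These sums also enter the contrasts on which the members were selected, and earlier results of these data were known at the choice. The members' values here are therefore a description as well. Of 9159 genes, 150 (1.64%) passed, 89 higher and 61 lower in BR7-BR10. Of the 9 members tested 1 passed, Bnip3, at 69.2 CPM ± 12.0 (SD, n = 4) in BR7-BR10 and 30.0 CPM ± 14.9 (n = 4) in BR1-BR4. The log2 difference was 1.10 (SE 0.24, edgeR adjusted p = 0.0152), and the lowest mouse of BR7-BR10, 56.5 CPM, lay above the highest of BR1-BR4, 50.6 CPM, which was mouse 1. The call was lost without mouse 2, 4 or 8 (edgeR adjusted p = 0.0695, 0.0573 and 0.0653), with log2 differences of 1.11, 0.89 and 1.00, and without mouse 1 the difference was 1.52.

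Ankrd37 was at 88.9 CPM ± 15.6 (SD, n = 4) against 55.4 CPM ± 16.4 (n = 4), a log2 difference of 0.65 (SE 0.19) that missed the threshold (edgeR adjusted p = 0.0683), and was 0.91 without mouse 1 (edgeR adjusted p = 0.00872). The lowest mouse of BR7-BR10 and mouse 1 of BR1-BR4 both had 78.0 CPM. Kdm3a, at 12.9 CPM ± 1.62 (SD, n = 4) against 9.62 CPM ± 0.762 (n = 4), did not overlap between the sets but had a log2 difference of 0.43 (SE 0.31) and an edgeR adjusted p of 0.610. Including Ankrd37 by less than its rounding, 3 of the 9 members tested did not overlap, whereas 8.01% of all genes tested did not.

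Ddit4 went the other way, with 86.2 CPM ± 13.0 (SD, n = 4) in BR7-BR10 and 119 CPM ± 28.5 (n = 4) in BR1-BR4, a log2 difference of -0.50 (SE 0.16, edgeR adjusted p = 0.117). Egln3 differed by 0.44 (SE 0.22, edgeR adjusted p = 0.403), or 0.77 without mouse 1 (edgeR adjusted p = 0.0765) and 0.28 without mouse 4. The remaining members, Egln1, Bnip3l, Ndrg1 and Vegfa, differed by -0.10 to 0.21 with adjusted p of 0.688 to 0.924. When a mouse was left out these 4 also moved. Egln1, at 0.16, was 0.46 without mouse 1 and 0.01 (0.0105) without mouse 4, and was also lower without mouse 2 (0.07) or 10 (0.05) and higher without mouse 9 (0.30). Ndrg1, at 0.20, was 0.40 without mouse 1, 0.33 without mouse 7, and 0.09 without mouse 4 or 8. Vegfa, at -0.10, was 0.12 without mouse 1, -0.31 without mouse 3, -0.16 without mouse 9, -0.03 without mouse 2 and -0.04 without mouse 10. Bnip3l, at 0.21, was 0.08 without mouse 7 and 0.37 without mouse 9, and 0.31 and 0.09 with technical replicate 1 or 2 alone. With technical replicate 1 alone Vegfa was at -0.22 and Kdm3a at 0.67. P4ha1 was not tested and had 4.82 CPM ± 0.806 (SD, n = 4) and 4.31 CPM ± 2.61 (n = 4).

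Markers of differentiation and of stem cells also differed between the untreated sets. Of 8 colonocyte markers tested, 7 were higher in BR7-BR10 and 3 passed, Fabp2 (log2 difference 0.85), Muc3 (1.62) and Aqp8 (1.82), and the list summed to 1071 to 1998 CPM against 917 to 1406 CPM. Of 9 stem and progenitor markers tested, 8 were lower and 2 passed, Ascl2 (-0.51) and Axin2 (-0.84), with sums of 732 to 779 CPM against 881 to 1032 CPM. Enteroendocrine markers were higher in BR7-BR10 for 7 of 7 tested (median log2 difference 0.50) and goblet markers for 6 of 8 (median 0.48), and 0 of either list passed. At an unadjusted p under 0.05 the goblet markers Muc2 (0.63), Clca1 (1.35) and Agr2 (0.63) were on the positive side and Fcgbp (-0.65) on the negative. The part of these lists in the difference of Bnip3 was not tested.

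**Figure D3:**
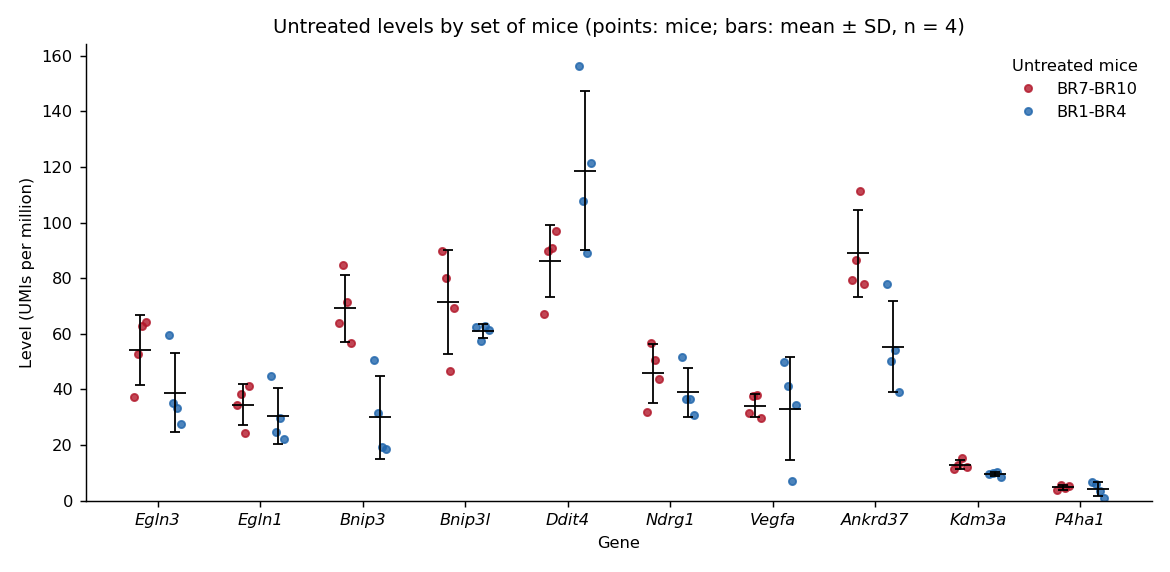
Untreated levels of the 10 genes in CPM (UMIs, linear axis from 0) in BR7-BR10 (red) and BR1-BR4 (blue), with a point per mouse and the mean ± SD of 4 mice. The sets are separate for Bnip3 and Kdm3a, meet at 78.0 for Ankrd37 and overlap for the other 7 genes.

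Levels of the members varied alike from sum to sum. Pearson correlations of log2 CPM over the 16 sums, after each set's mean was removed, were positive for 42 of the 45 pairs, with a median of 0.433 and a range of -0.095 to 0.877. The median over all 26568405 pairs of genes with a mean of at least 10 CPM was -0.0012. The highest values joined Egln3 with Bnip3 (0.877), with Ddit4 (0.834) and with Ndrg1 (0.831). These sums share mice, sorts and sequencing depth, and the values are a description. With each mouse's own mean removed instead, which leaves only the difference between its 2 cultures, 34 pairs were positive and the median was 0.319. Each mouse then gives 2 mirrored values, and no median over all genes was taken this way. The members were selected on this difference, which also enters the values with the set's mean removed. Neither median supports anything by itself.

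Bnip3 and Egln3 tracked the rest most closely, with r of 0.954 and 0.910 to the mean of the other members over 16 sums. Ndrg1 (0.778), Ddit4 (0.745), Ankrd37 (0.726) and P4ha1 (0.711) followed. Egln1 had 0.545 and Vegfa 0.422, while Kdm3a (0.275) and Bnip3l (0.225) shared least with the group.

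Mean levels of the 10 members lay highest in mouse 1, 0.49 above its set's mean on the log2 scale untreated and 0.78 above it with Bch. Treated mice 7 and 10 followed at 0.45 and 0.33 above the mean of BR7-BR10, and untreated mouse 7 was at -0.32. The untreated sum of mouse 1 came from 13114 sorted cells and its treated sum from 3504, and the part of cell number in its levels was not tested.

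**Figure D4:**
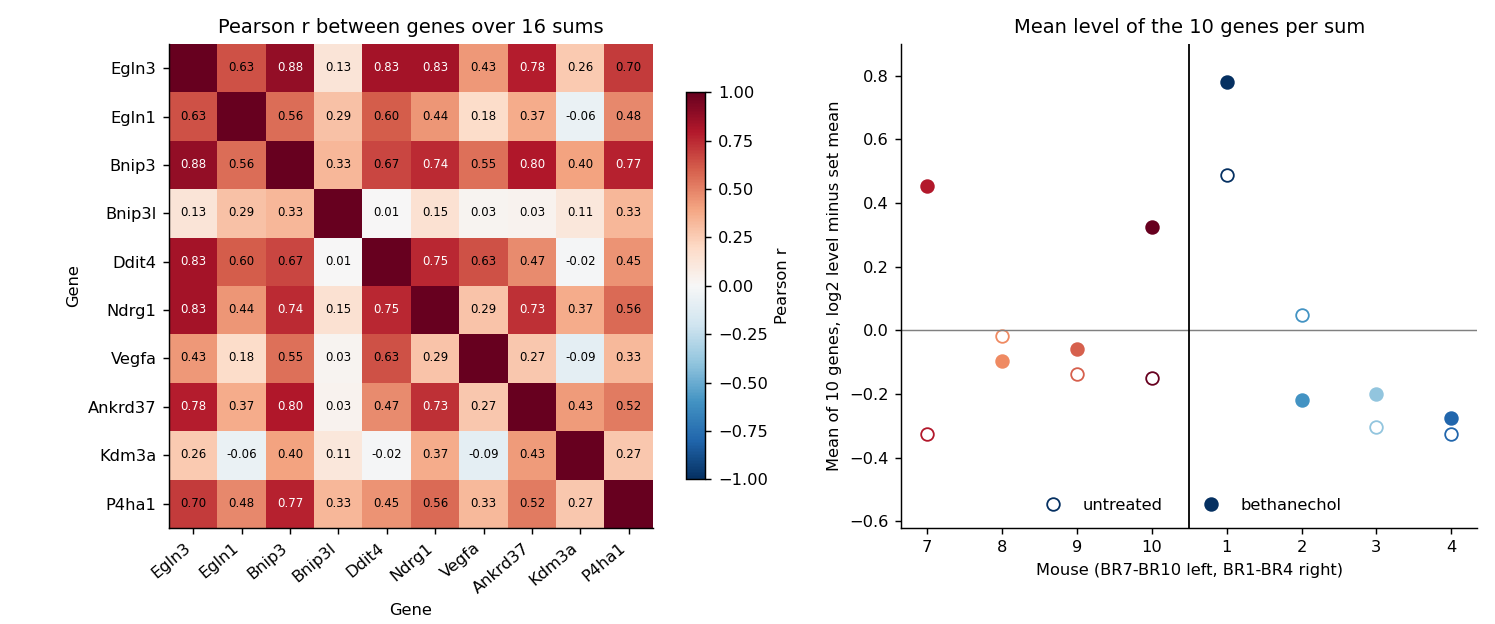
Left, Pearson r between the log2 levels of each pair of genes over 16 sums after removal of the set mean; right, the mean log2 level of the 10 genes in each sum relative to its set, open circles untreated and filled circles Bch. Bnip3l and Kdm3a have the palest rows, and treated mouse 1 has the highest mean, 0.78.

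Of 7281 genes with at least 10 CPM, those most like the members' mean over the 16 sums were Slc16a3 (r = 0.934), Ldha (0.907), Fdps (0.902), Pkm (0.897) and Tmem176a (0.893). Slc16a3 encodes the lactate exporter MCT4, Ldha lactate dehydrogenase A and Pkm pyruvate kinase, whereas Fdps is an enzyme of isoprenoid synthesis. With Bch, Slc16a3 had a log2 fold change of 0.72 (SE 0.19) in BR7-BR10 and -0.15 (SE 0.26) in BR1-BR4. The other 4 had 0.08 to 0.23 in BR7-BR10 and -0.08 (Ldha) to 0.21 (Fdps) in BR1-BR4.

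The genes that make and regulate HIF itself were listed separately, and 0 of the 11 tested in either set passed for Bch. Hif1a, the alpha subunit of HIF-1, had a mean of 9.47 CPM untreated and 14.6 CPM treated in BR7-BR10, higher in 4 of 4 mice (log2 fold change 0.63, SE 0.31), and 17.0 and 16.9 CPM in BR1-BR4 (-0.05, SE 0.26). Its partner Arnt had 0.55 (SE 0.41) and -0.01 (SE 0.49), and Vhl, the recognition subunit of the ligase, 0.45 (SE 0.36) and -0.12 (SE 0.33). The third prolyl hydroxylase, Egln2, which is not a typical HIF target, was lower in 4 of 4 mice of BR7-BR10 (-0.22, SE 0.15) and in 3 of 4 of BR1-BR4 (-0.25, SE 0.12). The asparaginyl hydroxylase Hif1an had 0.14 (SE 0.34) and -0.51 (SE 0.36).

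Ligase subunits and coactivators were also below the threshold. Elob, Eloc, Cul2 and Rbx1 had log2 fold changes of -0.02, 0.01, 0.25 and -0.10 in BR7-BR10 and of 0.06, -0.06, -0.08 and -0.05 in BR1-BR4. Ep300 had 0.13 and 0.41, and Crebbp 0.16 and 0.05. In the untreated comparison 0 of 10 tested passed, and Hif1a was lower in BR7-BR10 by a log2 difference of -0.82 (SE 0.31, edgeR adjusted p = 0.230).

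Other HIF targets outside glycolysis, 40 listed genes of which 38 were in the table, gave 0 calls in any comparison. In BR7-BR10, 21 of 28 tested were positive and 7 negative, with a median of 0.16, and in BR1-BR4 11 of 26 were positive, with a median of -0.01. The smallest p values in BR7-BR10 belonged to Adm (0.64, SE 0.40), encoding adrenomedullin, and Jmjd6 (0.29, SE 0.18) among the positive, and to Sap30 (-0.36, SE 0.15) and the lipid droplet gene Plin2 (-0.34, SE 0.16) among the negative. In BR1-BR4 they belonged to Ccng2 (0.75, SE 0.37) and Edn1 (0.31, SE 0.19), and to Wsb1 (-0.39, SE 0.29) and Car12 (-0.32, SE 0.25). The intestinal list had 4 genes tested in BR7-BR10 and 5 in BR1-BR4, with medians of 0.17 and 0.01. The smallest p among positive genes in BR7-BR10 belonged to the trefoil factor Tff3 (0.23, SE 0.16) and the brain type creatine kinase Ckb (0.18, SE 0.14), with no negative gene. In BR1-BR4 they belonged to Ckb (0.24, SE 0.11) and the iron transporter Slc11a2 (0.04, SE 0.24), and among the negative to the iron exporter Slc40a1 (-0.47, SE 0.46) and the drug transporter Abcb1a (-0.11, SE 0.13).

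Glycolytic HIF targets had a median close to that of the members in BR7-BR10. Of 17 tested, 16 were positive with a median of 0.31, and 0 passed; Slc16a3 and Slc2a1 (0.76, SE 0.21), the glucose transporter GLUT1, had the smallest p, and Aldoc (-0.08, SE 0.21) was the negative gene. In BR1-BR4, 10 were positive and 7 negative with a median of 0.09, led by Gapdh (0.45, SE 0.11) and Hk2 (0.45, SE 0.16) upward and Pfkfb3 (-0.99, SE 0.46) and Pdk1 (-0.37, SE 0.24) downward. Between the untreated sets, 14 of 17 were higher in BR7-BR10 and 1 passed, Ldha (0.58, SE 0.15, edgeR adjusted p = 0.0470).

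Genes that work beside single members were also listed. Of the mitophagy adaptors and the LC3 family, 12 were tested and 0 passed in any comparison, with 6 positive and 6 negative in BR7-BR10 and medians of 0.00 (0.00085) and 0.03 in the 2 sets. Bcl2l13 (0.52, SE 0.31) and Sqstm1 (0.18, SE 0.14) led upward in BR7-BR10, and Map1lc3b (-0.11, SE 0.14) and Phb2 (-0.09, SE 0.14) downward. In BR1-BR4, Map1lc3a (0.27, SE 0.18) and Sqstm1 (0.09, SE 0.11) led upward and Pink1 (-0.30, SE 0.17) and Map1lc3b (-0.09, SE 0.09) downward. Of 7 mTORC1 inhibitors tested beside Ddit4, 3 were positive in BR7-BR10 and 2 in BR1-BR4, with medians of -0.01 and -0.08 and 0 calls. Tsc1 (0.56, SE 0.51), Akt1s1 (0.09, SE 0.15), Nprl3 (-0.43, SE 0.36) and Deptor (-0.05, SE 0.20) had the smallest p of their direction in BR7-BR10, and Nprl3 (0.18, SE 0.33), Sesn2 (0.11, SE 0.40), Sesn3 (-0.26, SE 0.40) and Tsc2 (-0.24, SE 0.45) in BR1-BR4. The 3 tested partners of collagen prolyl hydroxylation had 0.20 (P4hb), 0.31 (P4ha2) and 0.44 (Plod3) in BR7-BR10 and -0.02, -0.03 and 0.11 in BR1-BR4.

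Cell type markers were read beside the Bch response. Goblet markers were positive for 7 of 8 in BR7-BR10 (median 0.24, sums of 2165 to 4900 CPM untreated and 3027 to 6123 CPM treated), and 4 of 7 in BR1-BR4 (median 0.01). Colonocyte markers were positive for 5 of 8 (0.15) and 1 of 7 (-0.21), stem and progenitor markers for 5 of 9 (0.03) and 4 of 9 (-0.03), and enteroendocrine markers for 1 of 7 (-0.15) and 5 of 6 (0.15). Cycling markers were positive for 4 of 8 (0.00277) and 0 of 8 (-0.07), and dissociation and stress genes for 4 of 9 (-0.0061) and 0 of 7 (-0.21). None of these lists had a gene that passed for Bch, and their part in the members' values was not tested.

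The technical replicates, 2 libraries from each culture, gave the members totals of similar size. Over all mice Bnip3 had 954 UMIs in the first and 989 in the second, Egln3 916 and 940, Ddit4 1851 in both and P4ha1 86 and 89. Totals differed more for Bnip3l (1063 and 1173), Ndrg1 (827 and 766) and Ankrd37 (1224 and 1120). Library by library, the log2 ratio of the second to the first ranged from -0.49 to 0.56 for Bnip3 and from -1.24 to 0.63 for Kdm3a, the latter from 167 and 165 UMIs in all. It ranged from -1.24 to 0.23 for Egln1 and from -0.60 to 1.43 for P4ha1. For Ankrd37 the second library was lower in every culture (-0.75 to -0.10).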

How the data were processed

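RNA of sorted cells was measured in 32 libraries with UMIs. The authors deposited counts of UMIs per gene and library, without normalization, for which they aligned the reads to GRCm38 with a GENCODE annotation and ran the Drop-seq pipeline (so the study's methods; the submitters' processing notes name GRCh38 for these mouse samples); the strand and the treatment of reads that match several genes are not given in the sources used here. For 1520 genes the second technical replicate is blank and was read as 0; no member is among them. Technical replicates of a culture were summed, and every column was mapped by its title. The members and all lists were chosen with earlier results of these data known.

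Genes that passed filterByExpr were tested on counts with edgeR 4.0.16 (TMM, robust quasi-likelihood, R 4.3.3), with the mouse as a block for Bch, at a Benjamini-Hochberg adjusted p of 0.05. DESeq2 1.42.0 served as an alternative. The SE of a log2 fold change is its size over the root of F. Levels are TMM-scaled CPM, log2 ratios within a mouse add a prior count of 2, and the fit was tested on simulated data. Named genes were the members, the tested HIF genes, up to 2 genes per direction and list with the smallest p, and the 5 genes most like the members; Lgr5, the sex-linked genes, the markers called, or goblet markers with an unadjusted p under 0.05, between untreated sets and genes that overlap members were named after their values were seen. Pairs come from the labels, where 1 number is 1 mouse; deviations of paired cultures from their group means had correlations over 10280 genes of 0.244, 0.0331, 0.0615 and 0.0837 in mice 1 to 4 and 0.071, 0.151, 0.0031 and -0.0203 in mice 7 to 10. Each sum is 1 culture. With the mouse as a block, p-values for Bch measure how the change within a mouse varies from mouse to mouse. Between untreated sets they measure the spread of levels between mice. Both spreads also hold variation of culture, sort and library. Gene positions and shared windows were taken from GENCODE transcripts and promoters from RefSeq, both of build GRCm38. Other settings left out a mouse, the block, the filter or a technical replicate, or used DESeq2's size factors or 1 fit of 16 sums.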

Additional observations from a re-analysis of the deposited data

Results flagged for a closer look

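Of 60 groups of 4 values (each member's level by culture and its ratio by mouse, in each set), 6 had a value far from the other 3, with a gap above Dixon's critical value for 4 samples; chance alone flags about 1 in 20. Mouse 1 was far above the other treated mice of BR1-BR4 for Bnip3 (99.2 CPM), Egln3 (90.8 CPM) and Ndrg1 (80.0 CPM), and its log2 ratio of Bch to untreated for Ndrg1, 0.62, lay far above the others. In mouse 4 the log2 ratio of Ddit4, -0.067, lay below those of the other 3 mice, and in mouse 3 that of Vegfa, 2.22, lay above them, from 4 untreated UMIs. No member met the rule for a response that differs between the sets.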

How the results depend on the processing

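The members' median log2 fold change stayed positive in BR7-BR10 in all 11 alternatives (0.22 to 0.43) and in BR1-BR4 in 10 of 11 (-0.11 without mouse 1, up to 0.17); without the replicate block the paired medians of 0.31 and 0.11 became 0.31 and 0.02. Single members kept the sign of their log2 fold change in every alternative run for them for 7 of 10 in BR7-BR10 (not Egln1, Kdm3a and Ankrd37) and 3 of 9 in BR1-BR4 (Egln1, Kdm3a and Ddit4); P4ha1 in BR7-BR10 and Kdm3a in BR1-BR4 had 9 alternatives, with no value from single technical replicates, and the others 11. Calls over all genes depended on the setting, and the cause was not tested. For Bch in BR7-BR10 the 0 calls became 0 to 4 when a mouse was left out (1 without mouse 10, 3 without mouse 8, 4 without mouse 9), and the calls without mouse 8 include Bnip3 (edgeR adjusted p = 0.0442; 0.0442 to 1 over its alternatives), the sole call for Bch, in any alternative run, among the members tested. In BR1-BR4 the 2 calls became 0 with no replicate block, 0 with all 16 sums in 1 fit, 14 with DESeq2, 88 without the filter, 9 with technical replicate 1 alone and 0 to 19 when a mouse was left out (0 without mouse 1 or 2, 5 without mouse 3, 19 without mouse 4). DESeq2 gave no member tested in BR1-BR4 an adjusted p for Bch, so it could not call one there. Between untreated sets the 150 calls became 234 without the filter and 74 to 210 when a mouse was left out. The difference between sets gave 1 call without the filter. Ankrd37, not called between untreated sets, was called without the filter (edgeR adjusted p = 0.0182), with technical replicate 2 alone (0.0357) and without mouse 1 (0.00872), over a range of 0.00872 to 0.262; Bnip3 ranged from 1.67e-05 to 0.0695. With 4 mice a set and members at 2 to 474 UMIs, small differences could not be detected.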
